A study of Mus musculus with 4 samples.

Results

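The genes described here were 9 homeobox genes of the Meis, Pbx and Cdx families, namely Meis1, Meis2, Meis3, Pbx2, Pbx3, Pbx4, Cdx1, Cdx2 and Cdx4, out of 20701 gene symbols in the deposited transcript table. They were chosen by name, and for each symbol the transcript entry with the highest summed count over the 4 libraries was kept. Their expression was measured by RNA-Seq of cardiac progenitors obtained from mouse E14 Tg(Nkx2-5-EmGFP) embryonic stem cells, in which GFP marks the activity of Nkx2-5, a homeobox gene of early cardiac cells. The stem cells had been grown on mitomycin-treated mouse embryonic fibroblasts, and on day 5 of differentiation GFP-positive cells were sorted. There were 2 control libraries and 2 Isl1_KO libraries, the latter from cells in which both copies of Isl1 had been disrupted by CRISPR/Cas9 with a pair of guide RNAs. Isl1 is a LIM-homeodomain factor of second heart field progenitors. The comparison asked how the expression of these genes differed when Isl1 was lost. The lines were different clones of each genotype, so clone and genotype cannot be told apart for a single line. The p-values measure the spread between 2 libraries of each genotype.

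Meis and Pbx proteins belong to the TALE class of homeodomain proteins, whose homeodomain carries a loop extension of 3 additional amino acids. They bind DNA together, often with Hox proteins as partners, and Meis1 and Meis2 are known from developing heart, limb, eye and blood stem cells, while Pbx proteins are present in most embryonic tissues. Cdx proteins are caudal-type homeodomain factors that act in the posterior body axis upstream of Hox genes, in early blood formation, in the intestine and, for Cdx2, in trophectoderm.

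The coding sequence of the homeobox is shown for the 3 Meis genes, since these near relatives differed in their response, and for Pbx2 and Cdx2 as the most highly expressed gene of each of the other families among those examined. Sequences are from GENCODE vM1 transcripts on NCBIM37 and run 5′ to 3′. Capitals mark the 9 bases of the loop extension in Meis and Pbx genes, and the Cdx2 homeobox has none.
Meis1: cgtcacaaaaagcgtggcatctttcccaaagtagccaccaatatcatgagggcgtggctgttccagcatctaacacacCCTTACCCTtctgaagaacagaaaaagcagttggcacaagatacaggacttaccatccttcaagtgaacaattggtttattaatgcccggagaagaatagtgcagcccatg
Meis2: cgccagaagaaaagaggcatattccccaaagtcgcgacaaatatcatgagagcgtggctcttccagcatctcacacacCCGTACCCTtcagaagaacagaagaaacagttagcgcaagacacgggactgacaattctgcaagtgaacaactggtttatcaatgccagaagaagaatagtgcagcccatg
Meis3: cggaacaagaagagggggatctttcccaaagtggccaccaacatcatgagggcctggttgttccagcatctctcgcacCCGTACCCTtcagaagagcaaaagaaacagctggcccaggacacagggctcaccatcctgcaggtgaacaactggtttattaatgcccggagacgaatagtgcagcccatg
Pbx2: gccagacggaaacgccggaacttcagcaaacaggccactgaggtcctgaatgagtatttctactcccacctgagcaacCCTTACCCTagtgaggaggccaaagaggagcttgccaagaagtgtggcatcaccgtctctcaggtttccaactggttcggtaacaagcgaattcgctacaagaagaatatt
Cdx2: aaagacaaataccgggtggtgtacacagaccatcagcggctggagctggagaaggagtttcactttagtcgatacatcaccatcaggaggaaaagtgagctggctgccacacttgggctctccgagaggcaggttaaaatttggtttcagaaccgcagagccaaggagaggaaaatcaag
Over the 189 bases, Meis1 and Meis2 were 84.1% identical, Meis1 and Meis3 84.7% and Meis2 and Meis3 82.0%, whereas Meis and Pbx homeoboxes were 44.4% to 53.4% identical. Between the coding transcripts of the Meis genes the longest shared run was 23 bases for Meis1 and Meis2, 21 for Meis1 and Meis3 and 28 for Meis2 and Meis3. The homeobox was found with its loop extension in all 6 Meis and Pbx genes examined, and Cdx2 and Cdx4 held a 180-base homeobox with 81.1% identity to each other.

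Among the 7 members tested by edgeR, Meis1 and Meis2 had the largest negative log2 fold changes. The stretch of 250 bases before the start site is shown for both. These are RefSeq sequences on GRCm38.p6, a later build than that of the files, and the table held 7 of the 9 genes (not Pbx3 and Cdx1). Capitals mark TAAT on either strand, the core that many homeodomains bind.
Meis1, chr11:19018970-19019219, minus strand: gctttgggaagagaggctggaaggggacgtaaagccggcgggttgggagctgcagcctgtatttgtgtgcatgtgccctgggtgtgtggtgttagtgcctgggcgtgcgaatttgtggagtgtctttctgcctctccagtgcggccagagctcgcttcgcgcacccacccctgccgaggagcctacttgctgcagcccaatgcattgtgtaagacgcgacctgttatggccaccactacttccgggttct
Meis2, chr2:116064620-116064869, minus strand: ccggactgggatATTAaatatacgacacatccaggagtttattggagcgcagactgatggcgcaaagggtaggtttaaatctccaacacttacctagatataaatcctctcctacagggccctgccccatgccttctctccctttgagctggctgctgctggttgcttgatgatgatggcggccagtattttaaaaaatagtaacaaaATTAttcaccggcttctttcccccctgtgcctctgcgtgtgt
The Meis1 stretch had a GC content of 59.6% and no TAAT, and the Meis2 stretch had a GC content of 47.6% and TAAT at 238 and 42 bases before the start. The median GC content over all 32851 promoters in the table was 52.4%, and 54.9% of them held TAAT. Cdx2 held 3 matches to TAAT, and Cdx4, Meis3, Pbx2 and Pbx4 held none. The Meis-type motif TGACAG, the Pbx with Hox motif TGATNNAT, the Cdx-type motif TTTATG and the Isl1-type motif CTAATG, which contains TAAT, were searched on both strands. They were found in 15.9%, 7.68%, 10.8% and 6.36% of all promoters and had no match in any of the 7 stretches. No match says only that these letters are not in this window.

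Library totals over the kept entries were 8821517 and 9147425 in control and 13186109 and 11388333 in Isl1_KO, with 15411 to 15596 genes counted per library. Levels are given as CPM (counts-per-million after TMM scaling of the library sizes). A floor of 3 counts equalled 0.231 to 0.341 CPM and covers counting error only. Isl1 was at 35.1 and 35.7 CPM in control and at 1.31 and 2.08 CPM in Isl1_KO (log2 fold change -4.39, SE 0.212, edgeR quasi-likelihood adjusted p = 0.00277), so the transcript was low in the libraries labelled as its knockout. Of the markers of the sorted cells, Nkx2-5 was at 21.1 and 19.8 CPM in control and 4.77 and 4.34 CPM in Isl1_KO. The gene whose reporter defined the sort was thus itself called lower (log2 fold change -2.16, edgeR quasi-likelihood adjusted p = 0.00703). All 8 cardiomyocyte markers were called lower, with sums of 1935.9 to 2012.3 CPM in control and 69.8 to 121.1 CPM in Isl1_KO. Of 10 cardiac progenitor markers 6 were called lower, with sums of 1996.3 to 2004.0 and 1366.5 to 1717.5 CPM. These 6 include Nkx2-5 and Isl1 itself, the gene that had been disrupted. In bulk samples such as these, fewer cells of a type and less RNA per cell cannot be told apart. Across all genes 311 of 12715 (2.45%) had an adjusted p under 0.05 in the edgeR quasi-likelihood test, 247 lower and 64 higher in Isl1_KO, and the median log2 fold change was -0.0027.

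Meis1 was lower in Isl1_KO cells and Meis2 lay below control in both Isl1_KO libraries without passing the threshold, whereas the values of Meis3, Pbx2 and Pbx3 differed little from control, and Cdx2 went in opposite directions in the Isl1_KO libraries. Of the 9 genes, 7 had enough counts to be tested in the edgeR fit, and 1 of these 7, Meis1, was called, against 2.45% of all tested genes. A looser rule, with log2 fold changes beyond 0.58 in either direction and an unadjusted p under 0.05 in DESeq2, selected 2 of the 9 genes (Meis1 and Meis2), against 5.89% of the 16855 genes with a count. The median log2 fold change of the 7 tested genes was -0.19, with a range of -2.45 to 0.28.

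**Figure D1:**
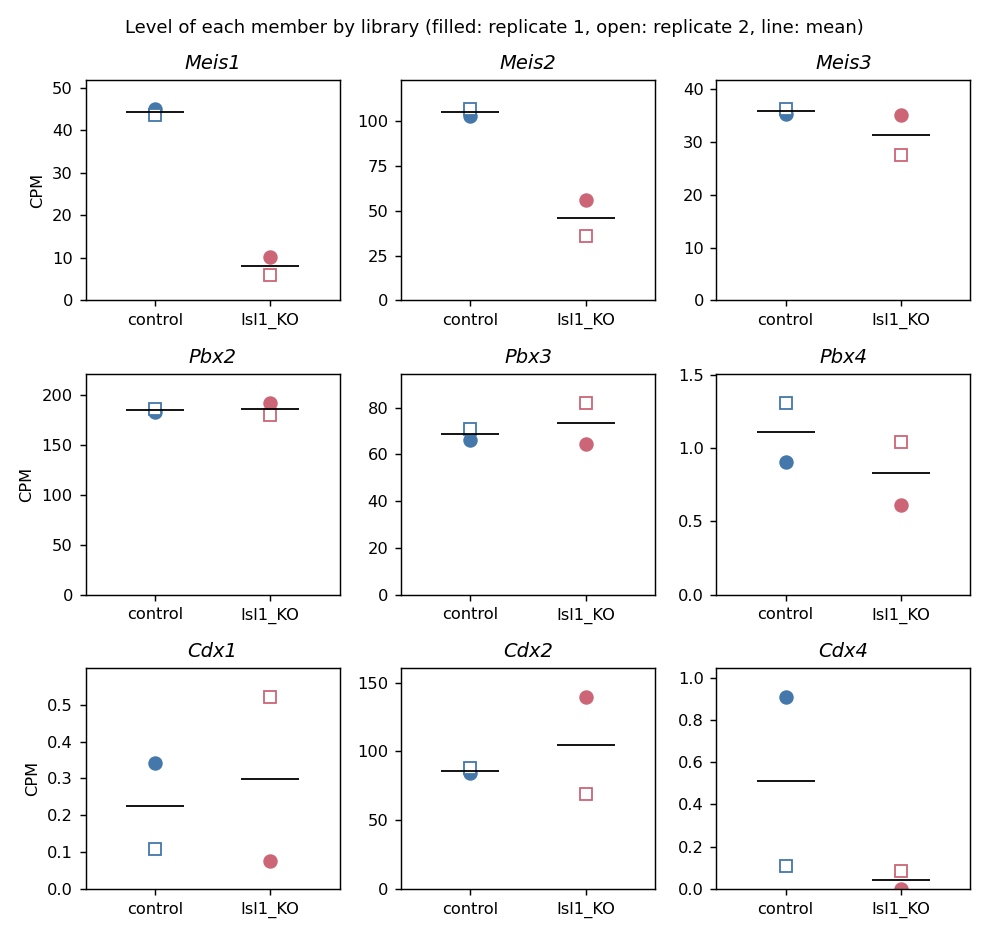
Level in CPM (vertical axis, starting at 0, with a scale of its own in each panel) of the 9 genes in the control and Isl1_KO libraries; each symbol is 1 library and the line is the mean of 2. Meis1 lies at 43.5 to 45.1 CPM in control and 5.9 to 10.1 CPM in Isl1_KO, while the Isl1_KO libraries for Cdx2 lie at 139.5 and 69.0 CPM, on either side of control.

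Meis1, a Hox cofactor with roles in heart and blood development, had the largest difference among the 7 members tested by edgeR. Meis1 (NM_001193271; chromosome 11, 18780433 to 18918961, minus strand, NCBIM37) was counted 397 and 398 times in control and 132 and 68 times in Isl1_KO. This corresponded to 45.1 and 43.5 CPM in control and to 10.1 and 5.9 CPM in Isl1_KO. The control libraries were close together, and both Isl1_KO libraries lay far below them. The mean fell from 44.3 ± 1.07 to 8.02 ± 3.0 CPM (SD, n = 2), 5.48-fold, with a log2 fold change of -2.45 (SE 0.246, 95% interval -3.08 to -1.83, edgeR quasi-likelihood adjusted p = 0.0173). Among the 12715 tested genes, 128 (1.01%) had a log2 fold change at or below that of Meis1. Both Meis1 transcript entries, whose reads overlap, gave -2.46 to -2.45. The call was lost without either control library, with an adjusted p of 0.182 without control replicate 1 and 0.137 without control replicate 2, while the log2 fold change stayed at -2.43 and -2.48. An exon of Meis1 overlaps Gm16140 on the opposite strand, and reads were counted on both strands, so reads of this pair could not be told apart.

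Meis2, the closest relative of Meis1 in function and a gene of neural crest, outflow tract and limb development, lay at 103.1 and 107.1 CPM in control and at 56.0 and 36.2 CPM in Isl1_KO. The groups did not overlap. Meis2 (NM_001346045; chromosome 2, 115688800 to 115891575, minus strand) had a log2 fold change of -1.19 (SE 0.204, 95% interval -1.70 to -0.67), a 2.28-fold lower mean (105.1 ± 2.86 against 46.1 ± 14.0 CPM, SD, n = 2), and an adjusted p of 0.0613 in the edgeR quasi-likelihood test, which missed the threshold. The DESeq2 Wald test called it (-1.18, adjusted p = 7.7e-06), as did the edgeR fit with no filter on low counts (adjusted p = 0.0284). Meis2 had 15 transcript entries of 4607 to 5181 bases, and these gave log2 fold changes of -1.19 to -1.14, since they shared most of their reads.

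Meis3, a relative known from hindbrain patterning, lay at 35.2 and 36.3 CPM in control and at 35.1 and 27.5 CPM in Isl1_KO. The first Isl1_KO library was thus only just below control and the second was farther below. Meis3 (NM_001302472; chromosome 7, 16760729 to 16771853, plus strand) had a log2 fold change of -0.19 (SE 0.144, 95% interval -0.56 to 0.17, edgeR quasi-likelihood adjusted p = 0.469). Without Isl1_KO replicate 1 the value was -0.38, and without Isl1_KO replicate 2 it was -0.03. In both of these fits the spread was estimated from the control pair alone.

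The proportions of the 3 Meis genes within each library also differed between the groups. On a scale of CPM per kb of transcript, which allows levels to be compared between genes, Meis1 lay at 12.9 ± 0.313 in control and 2.34 ± 0.877 in Isl1_KO, Meis2 at 21.5 ± 0.586 and 9.42 ± 2.86, and Meis3 at 20.3 ± 0.457 and 17.8 ± 3.03 (SD, n = 2). The summed level of the Meis genes was 54.2 and 55.3 CPM per kb in control and 34.3 and 24.8 in Isl1_KO. Meis1 made up 24.3% and 23.0% of this sum in control and 8.63% and 6.96% in Isl1_KO. Meis2 made up 38.9% and 39.6% in control and 33.3% and 29.9% in Isl1_KO, and Meis3 made up 36.9% and 37.4% in control and 58.0% and 63.2% in Isl1_KO, although its own level did not pass the test. Meis2 and Meis3 were thus nearly equal in control, with a log2 ratio of 0.08 and 0.09, and Meis3 exceeded Meis2 in Isl1_KO, with a log2 ratio of -0.80 and -1.08. The log2 ratio of Meis1 to Meis2 was -0.68 and -0.79 in control and -1.95 and -2.10 in Isl1_KO, so that Meis1 was lower relative to Meis2 in both Isl1_KO libraries. These ratios within a library do not depend on the scaling of the library, and they were not tested. An exact two-sided permutation test of 2 libraries against 2 cannot give a p under 0.333.

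**Figure D2:**
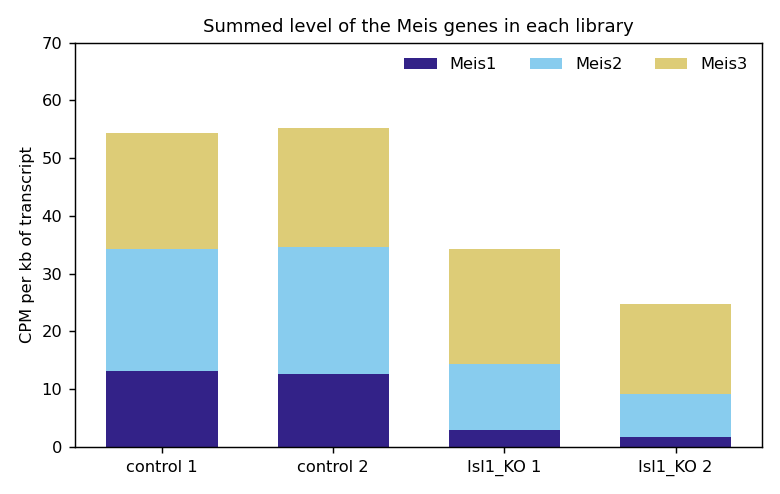
Stacked level in CPM per kb of transcript (vertical axis, from 0) of Meis1, Meis2 and Meis3 in each of the 4 libraries. The stacks reach 54.2 and 55.3 in control and 34.3 and 24.8 in Isl1_KO, and the Meis3 segment is the largest in both Isl1_KO libraries.

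The second Isl1_KO library was the lower for all 3 Meis genes. Against the control mean, Meis1 stood at 22.9% in the first and 13.3% in the second Isl1_KO library, Meis2 at 53.2% and 34.4%, and Meis3 at 98.0% and 76.9%. The sum of fibroblast markers, which mesodermal and feeder cells also express, moved with this order. Of these markers only Thy1 went the other way, at 2.31 CPM in the first and 3.82 CPM in the second Isl1_KO library. The reporter was in the stem cells, and whether the sort for GFP left any feeder cells was not tested. The 8 fibroblast markers summed to 2188.1 to 2239.7 CPM in control, 1418.2 in the first and 525.2 in the second Isl1_KO library. Of their log2 fold changes, 7 of 8 were below 0 (median -1.22). Of the 8 markers 0 were called by edgeR, 4 had an unadjusted p under 0.05 and 1 was called by DESeq2. Over all 16855 genes with a count DESeq2 called 604. No marker was at 0 in all libraries. Cardiomyocyte markers were also lowest in the second Isl1_KO library (69.8 against 121.1 CPM), as were cardiac progenitor markers (1366.5 against 1717.5 CPM). The part of these cell types in the Meis values was not tested.

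The 3 Pbx genes examined, which encode the usual dimer partners of Meis proteins, showed no called difference. Pbx2 was the most highly expressed member, at 183.8 and 186.9 CPM in control and 192.7 and 180.5 CPM in Isl1_KO, with the control libraries lying between the Isl1_KO libraries. Pbx2 (NM_017463; chromosome 17, 34728211 to 34734345, plus strand) had a log2 fold change of 0.01 (SE 0.0678), and the 95% interval of -0.16 to 0.18 was the narrowest of the set (edgeR quasi-likelihood adjusted p = 0.949). An exon of Pbx2 overlaps Gpsm3 on the same strand, which was itself at 5.03 to 6.24 CPM in control and 9.02 to 10.4 CPM in Isl1_KO.

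Pbx3, a family member with known roles in outflow tract, limb and hindbrain, lay at 66.3 and 71.0 CPM in control and at 64.4 and 82.1 CPM in Isl1_KO. The first Isl1_KO library was below both control libraries and the second above them. Pbx3 (NM_016768; chromosome 2, 34026977 to 34228660, minus strand) had a log2 fold change of 0.09 (SE 0.132, 95% interval -0.24 to 0.43, edgeR quasi-likelihood adjusted p = 0.718). The log2 fold change was -0.09 without Isl1_KO replicate 2 and 0.26 without Isl1_KO replicate 1. The spread in both of these fits came from the control pair alone.

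Pbx4, a gene best known from the testis in the mouse, was barely detected. It was counted 8 and 12 times in control and again 8 and 12 times in Isl1_KO, corresponding to 0.908 and 1.31 CPM and to 0.615 and 1.04 CPM. The groups overlapped. Pbx4 (NM_001024954; chromosome 8, 72356523 to 72397062, plus strand) had a log2 fold change of -0.44 (SE 0.457, edgeR quasi-likelihood adjusted p = 0.605), and its 95% interval of -1.60 to 0.72 was the widest of the set.

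**Figure D3:**
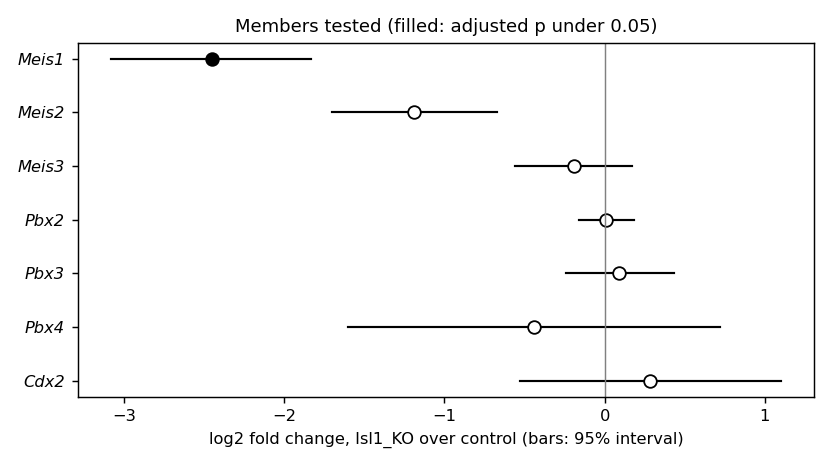
Log2 fold change of Isl1_KO over control (horizontal axis) with its 95% interval for the 7 genes with enough counts to be tested; the filled point has an adjusted p under 0.05 and the vertical line marks 0. The intervals of Meis1 (-3.08 to -1.83) and Meis2 (-1.70 to -0.67) lie below 0 and do not overlap, and those of the other 5 genes include 0.

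Of the Cdx genes only Cdx2 was expressed at more than trace level. Cdx2, which is needed in trophectoderm, posterior axis and intestine, lay at 84.0 and 87.8 CPM in control and at 139.5 and 69.0 CPM in Isl1_KO. The first Isl1_KO library was thus at 162.5% of the control mean and the second at 80.3%, whereas the control libraries lay at 97.8% and 102.2%. Cdx2 (NM_007673; chromosome 5, 148112381 to 148118846, minus strand) had a log2 fold change of 0.28 (SE 0.322, 95% interval -0.53 to 1.10, edgeR quasi-likelihood adjusted p = 0.638). The sign of the value rested on the first Isl1_KO library, and without it the log2 fold change was -0.32 (adjusted p = 3.7e-06). Without the second library it was 0.70 (adjusted p = 3.0e-39), and in both of these fits the spread was estimated from the control pair alone.

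Cdx1, a gene of primitive streak and intestine, was counted 3 times and 1 time in control and 1 time and 6 times in Isl1_KO, 0.0769 to 0.521 CPM, and was at or under the floor of 3 counts in 3 of the 4 libraries. Cdx4, which acts in posterior mesoderm and early blood formation, was counted 8 times and 1 time in control, and 0 times and 1 time in Isl1_KO. A count of 0 in the first Isl1_KO library allows a level of up to 0.231 CPM. Neither gene passed the filter on low counts of the edgeR fit. The DESeq2 Wald test used every gene with a count. It gave log2 fold changes of 0.41 (SE 1.92) for Cdx1 and -3.61 (SE 2.35) for Cdx4. The unadjusted p in this test was 0.833 for Cdx1 and 0.125 for Cdx4. No adjusted p was given, and no difference was called at counts this low. Per kb of transcript, Cdx2 accounted for 98.1% to 99.9% of the summed Cdx level in every library. Trophectoderm markers, taken as a list because Cdx2 is expressed there, summed to 699.3 to 712.3 CPM in control and 703.6 to 805.5 CPM in Isl1_KO. Most of each sum was Krt18, a keratin of many epithelia (624.7, 613.7, 727.2 and 640.3 CPM in the order control and Isl1_KO replicates 1 and 2). The other markers did not all share the order of Cdx2. Tfap2c (8.92 and 15.4 CPM) and Gata3 (16.6 and 21.9 CPM) were higher in the second Isl1_KO library than in the first. Lower in the second, like Cdx2, were Plac1 (47.1 and 21.9 CPM) and Krt7 (4.15 and 2.78 CPM). At trace level the same held for Esx1 (0.846 and 0.781 CPM) and Ascl2 (0.538 and 0.434 CPM). Of these markers 5 of 8 were tested and 0 were called by edgeR or DESeq2 (1 had an unadjusted p under 0.05), and Elf5, a defining gene of the lineage, had 0 to 1 counts per library. The part of these cells in the Cdx2 values was not tested.

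Per kb of transcript the order of levels in control was Pbx2 (66.4 ± 0.788 CPM per kb), Cdx2 (40.1 ± 1.24), Pbx3 (24.1 ± 1.17), Meis2 (21.5), Meis3 (20.3), Meis1 (12.9), Pbx4 (0.831 ± 0.214), Cdx4 (0.32 ± 0.355) and Cdx1 (0.129 ± 0.0937). The ranges of Cdx4 and Cdx1 overlapped in control, and those of the other neighbours did not. In Isl1_KO the order was Pbx2 (66.9 ± 3.11), Cdx2 (48.7 ± 23.3), Pbx3 (25.8 ± 4.39), Meis3 (17.8), Meis2 (9.42), Meis1 (2.34), Pbx4 (0.619 ± 0.225), Cdx1 (0.171 ± 0.18) and Cdx4 (0.0273 ± 0.0386). Here the ranges of Pbx2 and Cdx2 overlapped, with the first Isl1_KO library at 65.2 CPM per kb for Cdx2, and so did those of Cdx1 and Cdx4. The order of Meis2 and Meis3 was thus the reverse of that in control, whereas Pbx2 was the most abundant transcript of the set per kb in both groups.

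Other genes of the same networks were read from lists. Of 5 further TALE homeobox genes (Pknox1, Pknox2, Tgif1, Tgif2 and Mkx), 0 were called by edgeR or DESeq2, 1 had an unadjusted p under 0.05, and the median log2 fold change was 0.05 with a range of -0.44 to 0.39. The member with the unadjusted p was Pknox2, at 36.8 and 39.9 CPM in control and 32.2 and 24.3 CPM in Isl1_KO. Of 15 cofactors of Meis and Pbx proteins, 1 (6.67%) was called lower and 0 higher by edgeR, against 2.45% of all tested genes. The cofactors included histone deacetylases, acetyltransferases and Groucho-type corepressors, and their median log2 fold change was -0.04. The called cofactor was Tle4, a Groucho-type corepressor, which fell from 66.0 and 63.4 CPM to 41.5 and 44.0 CPM (log2 fold change -0.60, SE 0.0842, edgeR quasi-likelihood adjusted p = 0.0396).

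Retinoic acid signalling is a pathway known to regulate Meis genes in other tissues. Of 15 tested genes of this pathway, 2 (13.3%) were called lower and 0 higher by edgeR, against 2.45% of all tested genes. The median log2 fold change of the 15 genes was -0.37, with a range of -1.97 to 0.50. Rarb, a retinoic acid receptor and itself a classic target of the pathway, fell from 12.6 and 13.8 CPM to 3.92 and 2.78 CPM (log2 fold change -1.97, SE 0.224, edgeR adjusted p = 0.024). Crabp2, a retinoic acid-binding protein, fell from 18.3 and 18.9 CPM to 8.99 and 9.63 CPM (2.0-fold, 95% interval of the log2 fold change -1.34 to -0.65, edgeR adjusted p = 0.0359). Aldh1a2, the main retinoic acid-synthesizing enzyme of the embryo, was at 3.63 and 5.69 CPM in control and 1.23 and 1.65 CPM in Isl1_KO and missed the threshold (log2 fold change -1.70, SE 0.349, edgeR adjusted p = 0.0813). Cyp26a1, which degrades retinoic acid, was at 32.5 and 36.2 CPM in control and 33.0 and 64.2 CPM in Isl1_KO (log2 fold change 0.50, edgeR adjusted p = 0.403). The part of this pathway in the Meis values was not tested.

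Of 22 genes of the posterior axis and the Cdx network, 16 were tested and 0 were called by edgeR. Of these 16, the unadjusted p was under 0.05 for 3 and DESeq2 called 2. Over all 16855 genes with a count, a wider set than the genes tested by edgeR, DESeq2 called 604. The median log2 fold change of the 16 genes was 0.26 with a range of -0.59 to 1.29. T (brachyury), a gene of the primitive streak, was at 12.6 and 12.0 CPM in control and at 7.61 and 40.6 CPM in Isl1_KO, high in the second Isl1_KO library, where Cdx2 was low (log2 fold change 0.96, SE 0.75, edgeR adjusted p = 0.486). Of 39 Hox genes, the DNA-binding partners of Meis and Pbx and targets of Cdx, 30 were tested. By edgeR 3 (10.0%) were called lower and 0 higher, against 2.45% of all tested genes. Of these 30, DESeq2 called 5, against 604 of the wider set of all 16855 genes with a count. The unadjusted p was under 0.05 for 15 Hox genes, and no share over all genes is given for this limit. The Hox log2 fold changes were below 0 for 20 of 30, with a median of -0.75 and a range of -2.79 to 0.97. The called genes were Hoxa9 (10.6 and 10.5 CPM in control, 3.61 and 2.26 CPM in Isl1_KO), Hoxa10 (6.7 and 7.0 against 2.0 and 1.47) and Hoxa11 (4.65 and 5.03 against 0.922 and 0.434), with edgeR adjusted p of 0.0401, 0.0332 and 0.0359.

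**Figure D4:**
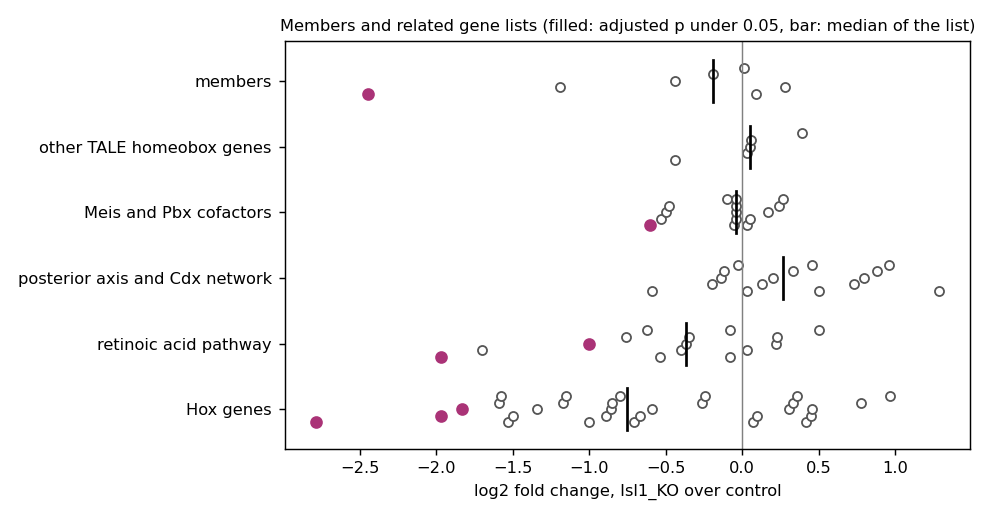
Log2 fold change of Isl1_KO over control (horizontal axis) for the 7 tested genes of the set (members) and for the tested genes of 5 related lists (rows); each point is 1 gene, filled where the adjusted p was under 0.05, and the bar is the median of the list. The filled points, all left of 0, are Meis1, Tle4, Rarb, Crabp2, Hoxa9, Hoxa10 and Hoxa11.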

How the data were processed

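The authors used STAR to map reads to mm9, allowing introns from 20 up to 500000 bases, and counted exonic reads per RefSeq transcript with HOMER on both strands. The deposited counts are whole reads, and entries of 1 gene share reads. The RPKM columns deposited by the authors (from edgeR) entered no result. The deposited log2 fold changes, p-value columns, score (Wald statistic) and signal (mean scaled count) are the authors' own DESeq2 comparison and were not used. Versions are not given in the sources used here. Groups came from the sample titles, which say knockout where the design text of the series says knockdown. All columns were matched, and the number of unmatched columns was 0.

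The table held 31507 entries, 29 of them for the genes described, and 20701 symbols. Tests were the edgeR 4.0.16 quasi-likelihood F test in R 4.3.3 (TMM, filterByExpr, no covariate, two-sided, Benjamini-Hochberg adjustment over 12715 genes, threshold 0.05) and the Wald test of DESeq2 1.42.0 with the study's criteria (absolute log2 fold change over 0.58, unadjusted p under 0.05). SE and 95% intervals were derived from each coefficient with its F statistic. CPM used effective library sizes, and SD is over 2 libraries. CPM was divided by the deposited transcript length in kb for levels between genes. Positions and homeoboxes are from GENCODE vM1 on NCBIM37. The code was tested on simulated data. Alternatives were other size factors, filters, transcript entries and tests, a replicate block and each library left out.

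The named genes were the 9 members, Isl1, each gene of 4 related lists past the adjusted threshold, a few fixed genes of these lists (Aldh1a2, T and Cyp26a1) and Hox genes past the threshold. Pknox2, Gpsm3, Nkx2-5, Elf5, Krt18, Tfap2c, Gata3, Plac1, Krt7, Esx1, Ascl2, Hbb-bh1 and Hba-x were added after their values were seen. So were Hand1, Gata4, Tbx5, Myl4, Myl7 and Thy1. The members and lists were chosen with earlier results of these data known. Of the genes that the naming rule selects, 1 is not reported here and is left out of all counts of lists. Other lists of markers gave the following sums in control and Isl1_KO. Blood markers summed to 518.8 to 530.3 and 292.8 to 405.7 CPM (1 of 8 called, higher; 6 of 8 log2 fold changes were above 0 with a median of 0.66, and the lower sum came from Hbb-bh1 and Hba-x), endothelial markers to 447.8 to 451.1 and 415.1 to 440.8 (0 called), endoderm markers to 204.2 to 204.6 and 175.5 to 178.7 (0 called), pluripotency markers to 72.2 to 74.6 and 30.9 to 72.6 (0 called) and neural markers to 256.7 to 257.0 and 186.4 to 277.9 (0 called, with 2 genes at 0 in all libraries). At an unadjusted p under 0.05 edgeR gave 6 of 8 tested blood, 3 of 8 endothelial, 2 of 7 endoderm, 0 of 6 pluripotency and 1 of 4 neural markers. No share over all genes is given for this limit. Of the same tested markers DESeq2 called 2, 1, 1, 0 and 0, against 604 of all 16855 genes with a count.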

Additional observations from a re-analysis of the deposited data

How the results depend on the processing

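Meis1 was the 1 gene of the set called by edgeR with other size factors, with at least 10 counts in every library, with all transcript entries and with the longest entry. Meis1 and Meis2 (2 genes) were called with no filter, with DESeq2 and with the replicate block. Leaving out 1 library gave 0 to 5 calls: 0 without either control library, 5 (Meis1, Meis2, Meis3, Pbx3 and Cdx2) without Isl1_KO replicate 1 and 3 (Meis1, Meis2 and Cdx2) without Isl1_KO replicate 2. Over all genes these fits called 27, 29, 6350 and 4176 against 311 with all libraries. In each of them the lone library was assumed to vary like the pair of the other group, and the control pair differed little. The log2 fold change without 1 library ranged from -2.91 to -2.12 for Meis1, -1.54 to -0.91 for Meis2, -0.38 to -0.03 for Meis3, -0.04 to 0.06 for Pbx2 (-0.003 without control replicate 1, reversed), -0.09 to 0.26 for Pbx3, -0.84 to -0.10 for Pbx4 and -0.32 to 0.70 for Cdx2. The sign also turned for Pbx2 (-0.04) and Cdx2 (-0.32) without Isl1_KO replicate 1 and for Pbx3 (-0.09) without Isl1_KO replicate 2. Meis2 was past the threshold at -1.17 (adjusted p = 0.0284) with no filter, -1.18 (7.7e-06) with DESeq2 and -1.22 (0.0195) with the replicate block. The cause was not tested. Replicate numbers did not pair the libraries (r = 0.0144 over 12715 genes between the deviations of same-numbered libraries), and the block changed no other call among the members and left 3 listed genes (Crabp2, Rarb and Tle4) called. Over all genes the alternatives called 492 with no filter, 464 entries of all transcripts, 454 with the block and 604 with DESeq2. Of the log2 fold changes of the members under an alternative, 62 kept their direction and side of the threshold. A further 8 kept their direction and newly passed the threshold, 2 no longer passed it and 4 reversed their direction. Pbx4 had no value with at least 10 counts in every library. The study's criteria selected the same 2 genes under every alternative run. Cdx1 and Cdx4 were limited by their low counts.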
